A study of Rattus norvegicus with 24 samples.

Results

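The slow skeletal troponin I gene Tnni1 and the fast skeletal troponin genes Tnni2, Tnnt3 and Tnnc2 were followed in the ventricles of rats from a study of cardiac hypertrophy after monocrotaline. The probes were chosen by their gene symbol alone. They gave 4 genes of the 3647 named genes with a value on any array, each through 1 probe. Tnni1 and Tnni2 had a value on all 24 arrays, Tnnc2 on 23 and Tnnt3 on 14.

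Each array compared total RNA of 1 ventricle sample with a common reference pool. The labels place the samples at day 14 and in 3 conditions written HYP, CHF and CON, with 6 right ventricle arrays and 2 left ventricle arrays in each. HYP and CHF were read as compensated hypertrophy and heart failure, and CON as the control, from the title of the series, because the labels do not spell the abbreviations out. They give no strain, age, dose or control injection, and do not say that the samples came from separate animals, so the p-values measure the spread between these samples. Monocrotaline is a plant alkaloid that damages the lung vessels, so that the load falls on the right ventricle while the left ventricle is largely spared.

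Troponin is the calcium switch of the striated muscle thin filament. Troponin C binds calcium, troponin I holds back the interaction of actin with myosin until it does, and troponin T ties both to tropomyosin. In the heart before birth troponin I is mostly the slow skeletal form encoded by Tnni1, which is replaced after birth by the cardiac form encoded by Tnni3. The fast forms, Tnni2, Tnnt3 and Tnnc2, are proteins of fast-twitch skeletal muscle fibres. The genes come in pairs on the chromosomes: in RefSeq (assembly GRCr8) Tnni1 lies on chromosome 13 with Tnnt2, and 1 other protein-coding gene starts between them. Tnni2 and Tnnt3 share chromosome 1, with 5 protein-coding gene starts between them.

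The upstream sequences of the slow and the fast troponin I genes are shown because the scores of these genes ran in opposite directions across the right ventricle arrays. Each is the 250 bases before the annotated gene start in RefSeq, build GRCr8, given 5′ to 3′ on the strand of the gene. Capitals mark an E-box (CANNTG, the motif of myogenic bHLH factors) or a TATA box (TATAAA), searched on both strands.
Tnni1, chr13:49781279-49781528, plus strand: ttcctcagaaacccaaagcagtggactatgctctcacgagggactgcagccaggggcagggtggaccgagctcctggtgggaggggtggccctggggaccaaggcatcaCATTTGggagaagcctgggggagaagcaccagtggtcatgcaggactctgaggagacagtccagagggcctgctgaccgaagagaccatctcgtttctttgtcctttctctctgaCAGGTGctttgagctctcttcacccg
Tnni2, chr1:207024240-207024489, plus strand: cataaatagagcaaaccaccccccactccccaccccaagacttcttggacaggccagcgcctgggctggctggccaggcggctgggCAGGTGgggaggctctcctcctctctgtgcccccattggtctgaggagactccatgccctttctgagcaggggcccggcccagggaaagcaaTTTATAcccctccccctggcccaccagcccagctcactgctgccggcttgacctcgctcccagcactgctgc
The Tnni1 sequence held 2 E-boxes and no TATA box. The Tnni2 sequence held 1 E-box and 1 TATA box, which was read on the opposite strand. The Tnnc2 sequence, not printed, held 3 E-boxes. Neither the M-CAT motif (CATTCC) nor the MEF2 motif was found in any of the 3. Of 33465 RefSeq windows of the same length, 65.5% held an E-box, 12.9% a TATA box, 12.1% an M-CAT motif and 2.96% a MEF2 motif, so an E-box is a common match.

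The deposited values were signed scores with an SD of 0.870 to 1.01 on each array. They were centred here on the median of the array, and a difference between groups is therefore given in array SDs, not as a log2 fold change. A score compares a sample with the reference pool, so the scores of different genes do not rank their abundance, and the presence of heart tissue could not be checked from levels. The scores were read as sample over pool. This direction is not settled, because 13 pairs of arrays correlated below -0.3 across probes, the lowest at -0.530, and no source used here names the dyes. Every comparison was therefore repeated with the sign turned on 5 arrays: CHF right ventricle 10 and 14, CHF left ventricle 9, and CON left ventricle 21 and 22. The CHF 15, CON 21 and CON 22 left ventricle arrays also stood apart in being deposited with 2 decimals instead of 3.

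Tnni1, the fetal troponin I, scored higher in the right ventricle than in the left in all 3 conditions on the scores as deposited, a direction that did not hold in CON with the sign turned. The right ventricle arrays averaged 0.621 ± 0.416 (SD, n = 18) and the left ventricle arrays -0.968 ± 0.222 (SD, n = 6). In CON the 6 right ventricle arrays had a lowest score of 0.713, a median of 0.792 and a highest score of 1.01, and the left ventricle arrays scored -1.21 (array 21) and -1.08 (array 22). In HYP the right ventricle ran from -0.110 through a median of 0.624 to 1.26, and the left ventricle arrays scored -1.15 (array 3) and -0.648 (array 5). In CHF the right ventricle ran from -0.313 through a median of 0.626 to 0.813, and the left ventricle arrays scored -0.772 (array 9) and -0.950 (array 15). The lowest right ventricle score, on CHF array 10, was above the highest left ventricle score, on HYP array 5, so the ventricles did not overlap.

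**Figure D1:**
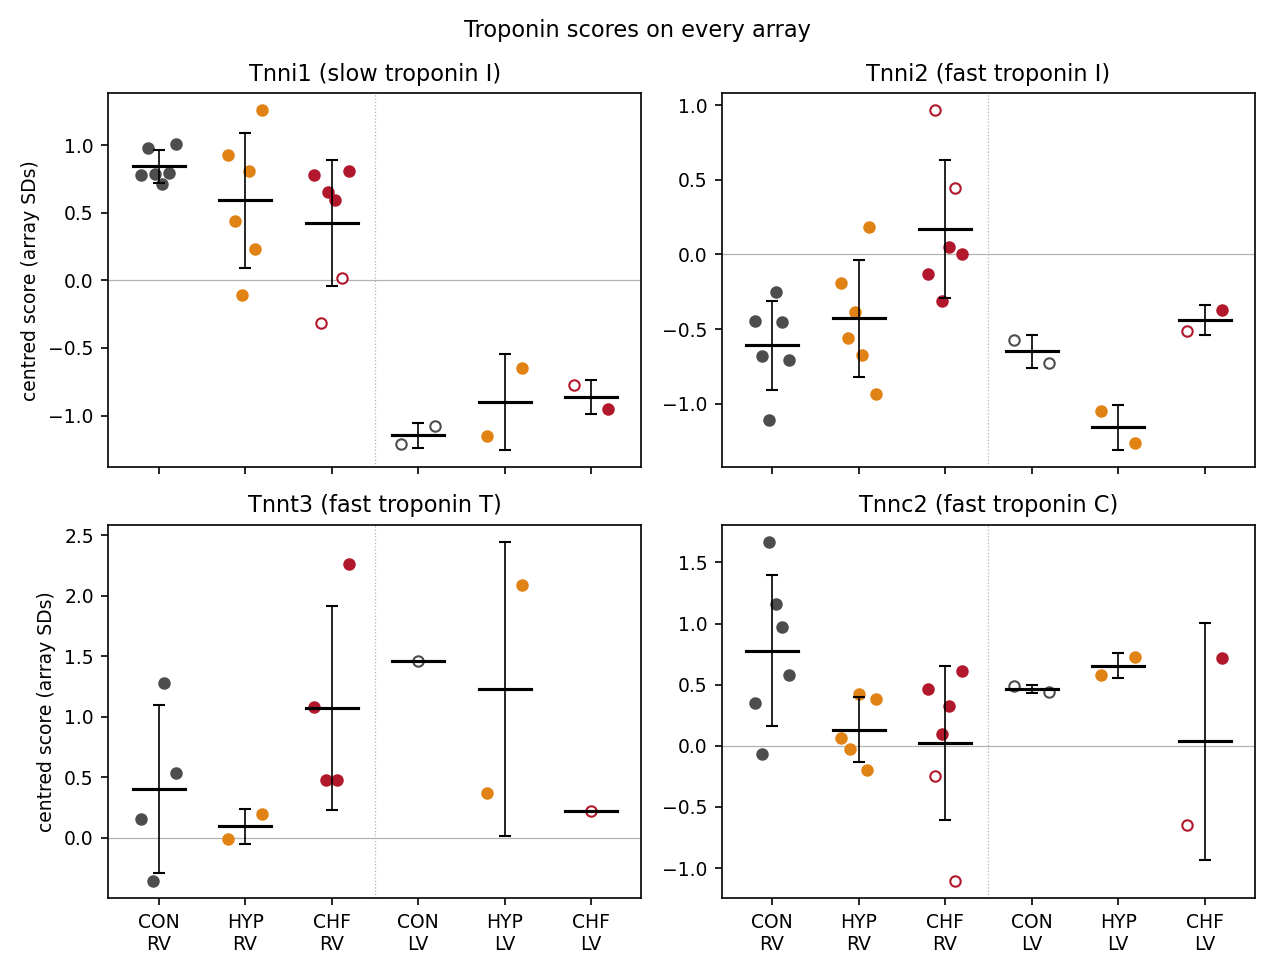
Scores of Tnni1, Tnni2, Tnnt3 and Tnnc2 on each array (points, array SDs after median centring) by condition and ventricle, with the group mean (bar) and SD (whiskers); open points are the 5 arrays whose sign was turned in the alternative. Tnni1 lies above -0.313 or at it on every right ventricle array and at or below -0.648 on every left ventricle array, while the ventricles overlap for the other 3 genes.

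Averaged over the conditions, Tnni1 scored 1.59 ± 0.196 (SE) array SDs higher in the right ventricle, with a 95% interval of 1.18 to 2.0 (limma with Benjamini-Hochberg adjustment, adjusted p = 6.33e-05). Of the 2494 features tested in this comparison, 18.3% passed the threshold, 11.8% being higher and 6.54% lower in the right ventricle. Of the 3 troponins tested 1 was called, and 2 had an unadjusted p below 0.05, as had 36.1% of features. A ventricle call was thus common on these arrays, and the size of the Tnni1 difference was exceeded, in either direction, by 3.41% of the features. By p-value Tnni1 stood at rank 2, behind the pacemaker channel gene Hcn2 (1.86 ± 0.165, adjusted p = 3.55e-07; 0.276 with the sign turned). Of 1617 features with a value on every array, 12 (0.742%) had ventricles that did not overlap. The right minus left difference of Tnni1 was 1.99 in CON, 1.49 in HYP and 1.29 in CHF, and with the sign turned it was -0.30, 1.49 and 0.613. A difference between the conditions was not shown. The effect of CHF differed between right and left by -0.704 ± 0.480 (adjusted p = 1) and that of HYP by -0.498 ± 0.480 (adjusted p = 0.9997; limma interaction terms). With the sign turned these terms were 0.913 and 1.79. In each of the 2 interactions 0 of 3 troponins and 0% of features were called, and 0 of 3 had an unadjusted p below 0.05, as had 2.73% of features for CHF and 2.49% for HYP.

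The ventricle difference of Tnni1 depended on the direction of the left ventricle arrays. It was 0.601 with the sign turned on the 5 arrays (limma adjusted p = 0.362), and 0 of 2494 features passed. The turned arrays were chosen by low likeness to the right ventricle arrays, so this loss cannot decide whether the ventricles differ. The 3 left ventricle arrays concerned correlated at 0.0904 to 0.696 with the other 3 left ventricle arrays as deposited. Without the 3 arrays of 2 decimals, and with condition and ventricle as additive terms, a fit added after the data were seen, Tnni1 was 1.38 ± 0.287 higher (adjusted p = 0.0496) and 6 of 3177 features passed. Leaving out any single array gave Tnni1 values of 1.51 to 1.67, and the call held in 24 of 24 such fits. The number of features called fell from 457 to 140 without CHF left ventricle array 9, 153 without CON 22, 160 without CON 21, 264 without HYP 3 and 269 without CHF 15. Without array centring 563 features passed, 75.5% of them higher in the right ventricle against 64.3% after centring.

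Blood markers differed in the same contrast. All 4 erythrocyte markers tested passed as lower in the right ventricle, from -6.29 for Hba-a1 to -1.91 for Alas2, beside 6.54% of all features. With the sign turned 0 of 2494 features passed, and so none of these. The mean score of the 3 of 8 erythrocyte markers with a value on every array ran from -6.65 to -0.740 in the right ventricle and from -6.55 to 5.43 in the left. Both ends of the left ventricle range were HYP arrays, and the CON left ventricle arrays, both turned in the alternative, were at 3.27 and 5.23. Of 8 cardiomyocyte markers tested 1 passed as lower, Myl3, and 0 passed as higher. Only 1 of the 8 was above 0, and their median was -0.690 against 0.0344 for all features. An unadjusted limma p below 0.05 was reached by 4 of the 8, and by 36.1% of all features. The mean score of 6 of 12 cardiomyocyte markers ran from -2.27 to 1.44 in the right ventricle and from 0.578 to 1.36 in the left. The part of these markers in the Tnni1 difference was not tested. In samples of whole ventricle, fewer cells of a type and less RNA per cell cannot be told apart.

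**Figure D2:**
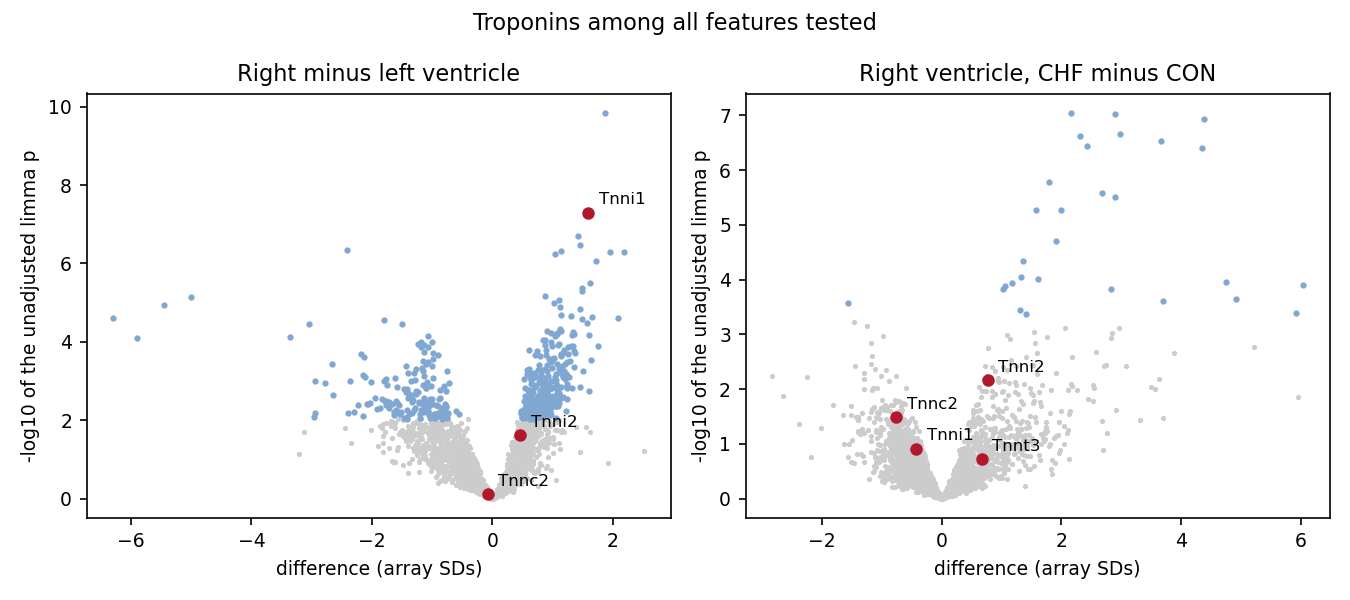
Difference (array SDs, x axis) against -log10 of the unadjusted limma p (y axis) of every feature tested, for right minus left ventricle and for CHF minus CON in the right ventricle; blue points have an adjusted p below 0.05, grey points do not, and red points are the troponins. Tnni1 (1.59) is among the called features for the ventricles, and no troponin is for CHF against CON.

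Across conditions no skeletal troponin passed the threshold in the right ventricle. In CHF against CON, 0 of 4 were called by limma, where 0.907% of 3199 features were (0.875% higher and 0.0313% lower), and 2 of 4 had an unadjusted p below 0.05, where 8.5% of features did. In HYP against CON, 0 of 4 were called against a background of 0.281%, and 0 of 4 had an unadjusted p below 0.05 (4.1% of features). In CHF against HYP, 0 of 4 and 0% of features were called, and 1 of 4 had an unadjusted p below 0.05 (4.94% of features). The comparisons with CON share its arrays.

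For Tnni1 the order of the right ventricle means was CON (0.845 ± 0.122), HYP (0.593 ± 0.501) and CHF (0.425 ± 0.463; SD, n = 6 each), and neighbours in this order differed by less than the larger SD. The CON arrays lay close together. HYP array 8, at 1.26, was above every CON array, and both other conditions held low arrays. CHF arrays 10 and 14 scored -0.313 and 0.016, and HYP arrays 4 and 6 scored -0.110 and 0.229, while no CON array was under 0.713. The same 4 arrays had median correlations with the right ventricle arrays of 0.0824, -0.110, -0.0321 and 0.208, against 0.157 to 0.547 on the others, so that 3 of the 4 lay below every other array. Over the 18 right ventricle arrays this array correlation and the Tnni1 score were related at r = 0.694 (permutation p = 0.0035, adjusted p = 0.0105 over 3 genes) and rho = 0.505 (permutation p = 0.0339, adjusted p = 0.102). Without CHF 14 and HYP 4, the arrays farthest from the median, r was 0.498, and without CHF 10 and 14 it was 0.545. Within conditions it was 0.168 in CON, 0.823 in HYP and 0.875 in CHF. For Tnni2 r was -0.433 (permutation p = 0.0848, adjusted p = 0.127) and for Tnnc2 0.384 (permutation p = 0.130, adjusted p = 0.130). Tnni1 was -0.420 ± 0.260 in CHF minus CON (95% interval -0.965 to 0.125, adjusted p = 0.684; -0.321 with the sign turned). It was -0.252 ± 0.260 in HYP minus CON (-0.797 to 0.293, adjusted p = 0.9997). In CHF minus HYP it was -0.168 ± 0.260 (-0.712 to 0.377, adjusted p = 0.976), and 0.119 without CHF arrays 10 and 14.

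Tnni2, the fast skeletal troponin I, had its highest mean in the CHF right ventricle on the scores as deposited, and in the CON left ventricle (0.650) with the sign turned, where CHF right ventricle was at -0.301. In CON the right ventricle scores had a lowest value of -1.11, a median of -0.566 and a highest value of -0.252. In HYP they ran from -0.937 through -0.473 to 0.184, and in CHF from -0.315 through 0.0265 to 0.965. The highest CHF scores were on arrays 10 (0.965) and 14 (0.447), the arrays with the lowest Tnni1 scores in that group, and CHF overlapped CON only through array 11 (-0.315). The means were 0.170 ± 0.464 in CHF, -0.427 ± 0.392 in HYP and -0.608 ± 0.299 in CON (SD, n = 6 each).

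Tnni2 was 0.777 ± 0.256 (SE) higher in CHF than in CON, with a 95% interval of 0.240 to 1.31. Its unadjusted p of 0.00694 placed it at rank 79 of 3199, and it did not pass after adjustment (limma, adjusted p = 0.281). Leaving out 1 array at a time gave 0.618 (without CHF 10) to 0.874 (without CHF 11). The difference was 0.307 with the sign turned (adjusted p = 0.606), and without CHF arrays 10 and 14 it was 0.509. CHF minus HYP was 0.596 ± 0.256 (0.0592 to 1.13, adjusted p = 0.938; 0.126 with the sign turned) and HYP minus CON 0.181 ± 0.256 (-0.356 to 0.718, adjusted p = 0.9997).

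In the left ventricle Tnni2 scored -0.570 and -0.730 in CON, -1.05 and -1.27 in HYP, and -0.510 and -0.370 in CHF. The HYP mean was the lowest of the 6 group means, and its gap to CON left ventricle exceeded the larger SD. Right minus left was 0.461 ± 0.190 (0.0663 to 0.856, adjusted p = 0.0873 by limma), and thus missed the threshold after median centring. It passed on the scores as deposited (0.625, adjusted p = 0.0212) and after quantile normalization (0.554, adjusted p = 0.0469), and turned to -0.299 with the sign turned. By condition the difference was 0.0425 in CON, 0.732 in HYP and 0.610 in CHF, each resting on 2 left ventricle arrays. The interaction terms were 0.689 ± 0.466 for HYP (adjusted p = 0.9997) and 0.567 ± 0.466 for CHF (adjusted p = 1). The HYP term was 1.99 with the sign turned (adjusted p = 0.0425).

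Tnnc2, the fast skeletal troponin C, had its highest mean in the control right ventricle. The CON arrays ran from -0.0675 through a median of 0.777 to 1.67, a mean of 0.777 ± 0.619 (SD, n = 6). The 5 HYP arrays with a value scored 0.0675 (array 1), -0.024 (array 3), 0.428 (array 5), -0.196 (array 6) and 0.381 (array 8), and the 6 CHF arrays ran from -1.11 on array 14 through 0.210 to 0.612. All 3 groups overlapped. CHF minus CON was -0.753 ± 0.324 (-1.44 to -0.0719, unadjusted p = 0.0321, adjusted p = 0.525 by limma; -0.302 with the sign turned). HYP minus CON was -0.646 ± 0.340 (-1.36 to 0.0685, adjusted p = 0.9997). CHF minus HYP was -0.107 ± 0.340 (-0.822 to 0.608, adjusted p = 0.986), and 0.119 without CHF array 14 alone.

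The left ventricle scores of Tnnc2 were 0.490 and 0.440 in CON, 0.583 and 0.729 in HYP, and -0.648 (array 9) and 0.720 (array 15) in CHF. The CHF arrays were the lowest and among the highest of the 6. Right minus left was -0.0748 ± 0.263 (-0.622 to 0.472, adjusted p = 0.852), a fit in which HYP right ventricle array 4 had no value. The sign of this difference changed under several settings, so no direction is given.

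Tnnt3, the fast skeletal troponin T, was measured on 10 right ventricle arrays. It scored 0.152 (array 17), -0.360 (array 18), 1.28 (array 21) and 0.539 (array 22) in CON. The HYP arrays scored -0.008 (array 3) and 0.195 (array 8), and the CHF arrays 1.08 (array 9), 0.480 (array 11), 0.474 (array 12) and 2.27 (array 15). The CHF scores overlapped those of CON, and HYP had only 2 values. CHF minus CON was 0.672 ± 0.482 (-0.391 to 1.74, adjusted p = 0.736 by limma), HYP minus CON -0.310 ± 0.590 (-1.61 to 0.992, adjusted p = 0.9997) and CHF minus HYP 0.982 ± 0.590 (-0.320 to 2.28, adjusted p = 0.940). CHF right ventricle arrays 10 and 14 gave no value for Tnnt3, so the turned sign left these differences as they were. Without CHF array 15 CHF minus CON was 0.275 and CHF minus HYP 0.585. Without CON array 18 CHF minus CON was 0.418 and HYP minus CON -0.564, and without CON array 21 HYP minus CON was -0.0173. In the left ventricle Tnnt3 scored 1.46 (CON 21), 0.372 (HYP 3), 2.09 (HYP 5) and 0.218 (CHF 9), too few values for a test there.

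**Figure D3:**
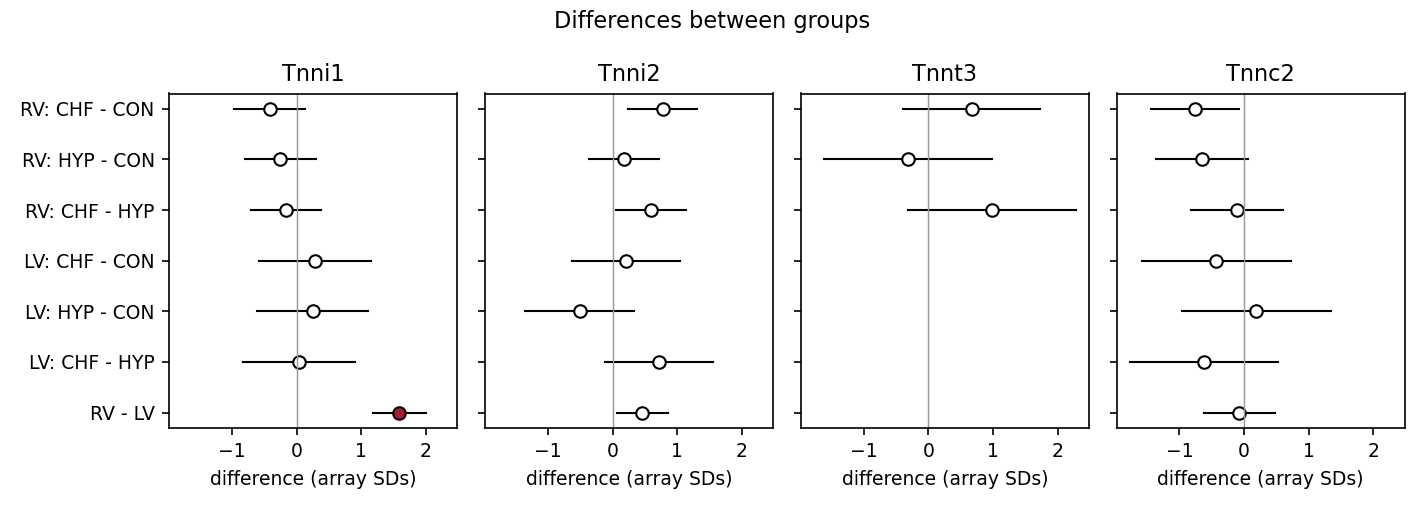
Differences between conditions and between ventricles for each troponin (array SDs) with 95% limma intervals; filled points have an adjusted p below 0.05. The filled point is Tnni1, right minus left ventricle (1.59, interval 1.18 to 2.0), and Tnnt3 has no point in the comparisons that use left ventricle arrays.

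Within the left ventricle 0 of 3 troponins were called by limma in each comparison of conditions, as were 0% of 2494 features, and 0 of 3 had an unadjusted p below 0.05, against 0.882% of features for CHF against CON, 1.84% for HYP against CON and 3.01% for CHF against HYP. Each of these rests on 2 arrays a group, whose spread was taken to equal that on the right ventricle arrays. Tnni1 was 0.284 ± 0.416 in CHF minus CON (-0.579 to 1.15) and 0.246 ± 0.416 in HYP minus CON (-0.617 to 1.11). These became -1.23 and -2.04 with the sign turned, the second with an adjusted p of 0.0290. Tnni2 was 0.210 ± 0.404 in CHF minus CON and -0.509 ± 0.404 in HYP minus CON, and with the sign turned -0.580 and -1.81, the second again with an adjusted p of 0.0290. Tnnc2 was -0.429 ± 0.553 and 0.191 ± 0.553, and with the sign turned 1.15 and 1.12. No direction is given for the left ventricle.

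Slow and fast troponin I were also set against each other on the same array. Tnni1 minus Tnni2 averaged 1.45 ± 0.359 in CON, 1.02 ± 0.789 in HYP and 0.255 ± 0.912 in CHF right ventricle (SD, n = 6 each). On CHF arrays 10 and 14 the difference was below 0, at -1.28 and -0.431, and the other 4 CHF arrays lay between 0.547 and 0.968. The lowest CON array, number 20, was at 0.965, which CHF array 11 exceeded. In the left ventricle the difference was -0.640 and -0.350 in CON, -0.098 and 0.617 in HYP, and -0.262 and -0.580 in CHF. The difference in group means between CHF and CON in the right ventricle was -1.20 for Tnni1 minus Tnni2, -0.853 for Tnni1 minus Tnnt3 and 0.334 for Tnni1 minus Tnnc2. With the sign turned these values were -0.627, -0.853 and -0.0192, and without CHF arrays 10 and 14 they were -0.642, -0.853 and 0.270. The Tnnt3 value uses 4 arrays of each group, none of them CHF 10 or 14, while the other 2 values use 6. No test was made on these differences.

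Over the 18 right ventricle arrays Tnni1 and Tnni2 correlated at Pearson's r = -0.720 (permutation p = 0.00093, adjusted p = 0.00279 over 3 pairs) and Spearman's rho = -0.633 (permutation p = 0.00577, adjusted p = 0.0173). Without CHF 10 and HYP 4, the arrays farthest from the median of Tnni1, r was -0.708. Within conditions r was -0.342 in CON, -0.553 in HYP and -0.934 in CHF, over 6 arrays each. Its value was -0.244 with the sign turned, and without CHF 10 and 14 it was -0.433 over 16 arrays, so the strength of the relation rested on those 2 arrays. Tnni2 and Tnnc2 correlated at r = -0.596 (permutation p = 0.0127, adjusted p = 0.0191) and rho = -0.493 (permutation p = 0.0477, adjusted p = 0.0477) over 17 arrays. This r was -0.441 without CHF 10 and CON 19, and -0.314 with the sign turned. Within conditions it was -0.297 in CON, -0.842 in HYP and -0.568 in CHF. Tnni1 and Tnnc2 correlated at r = 0.548 (permutation p = 0.0270, adjusted p = 0.0270) and rho = 0.493 (permutation p = 0.0463, adjusted p = 0.0477). Their r was 0.233 without CHF 10 and 14, and 0.00348 with the sign turned. Within conditions it was -0.617 in CON, 0.810 in HYP and 0.765 in CHF. Over all conditions the relation was thus weaker without those 2 arrays, and its direction in CON was opposite to that in HYP and CHF.

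**Figure D4:**
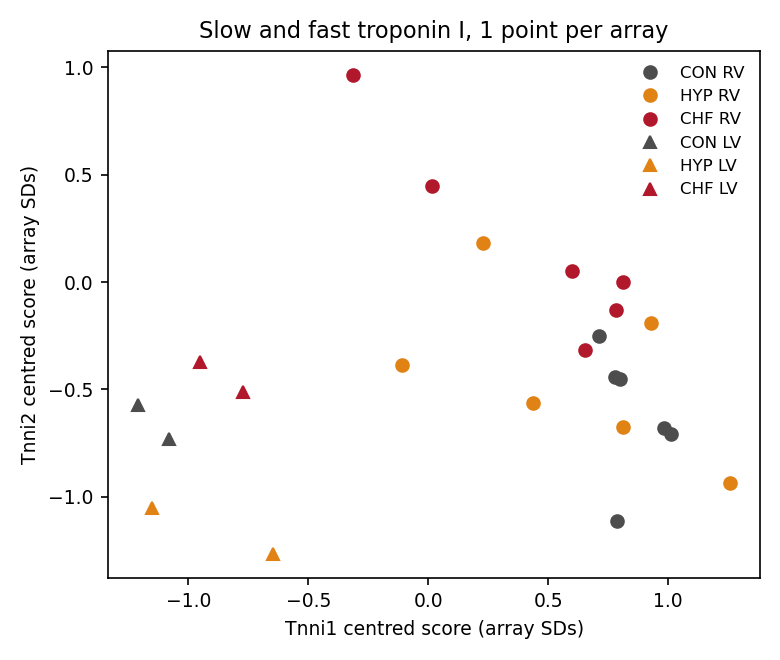
Score of Tnni1 (x axis) against score of Tnni2 (y axis), in array SDs, 1 point per array, by condition and ventricle. Right ventricle arrays run from high Tnni1 with low Tnni2 to CHF array 10 (-0.313 and 0.965), and the left ventricle arrays form a group at low Tnni1.

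The cardiac troponins of the same arrays, Tnnt2 and Tnni3, were not called in any comparison. Tnni3, the adult cardiac troponin I that replaces Tnni1, was -0.779 ± 0.590 in CHF minus CON of the right ventricle (adjusted p = 0.742 by limma; -1.18 with the sign turned). Its right minus left difference was -0.872 ± 0.462 (adjusted p = 0.176; 0.0447 with the sign turned), of the opposite sign to that of Tnni1. Tnnt2, the cardiac troponin T, was -0.945 ± 0.547 in CHF minus CON (adjusted p = 0.658; -1.35 with the sign turned) and 0.0816 ± 0.427 in right minus left (adjusted p = 0.902). CHF array 12 had the lowest score of both genes, -2.87 for Tnni3 and -2.57 for Tnnt2. Without it CHF minus CON was -0.290 for Tnni3 and -0.466 for Tnnt2, and without CON array 22 it was -0.517 and -0.581. No probe with 1 symbol was assigned to cardiac troponin C (Tnnc1) or slow skeletal troponin T (Tnnt1), so neither was analysed here.

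Of 4 tropomyosin genes listed 2 had a probe with 1 symbol, Tpm3 and Tpm4, and the others were not measured. The measured genes rose where the skeletal troponins did not pass. Both measured members were higher in CHF than in CON: Tpm3 by 2.91 ± 0.348 (adjusted p = 0.000122; 2.35 with the sign turned) and Tpm4 by 2.90 ± 0.444 (adjusted p = 0.00091; 1.77 with the sign turned, adjusted p = 0.284). Tpm3 was also higher in HYP than in CON, by 1.91 ± 0.348 (limma adjusted p = 0.0174). With the sign turned, which left this difference unchanged, its adjusted p was 0.136. Of 8 thin filament and Z disc genes 1 rose in CHF, the skeletal alpha-actin Acta1 (4.35 ± 0.573, adjusted p = 0.000157; 3.31 with the sign turned, adjusted p = 0.0849), and 0 fell. Of 10 thick filament genes 0 passed, and 1 had an unadjusted p below 0.05.

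Of 9 genes of the fetal programme, which the stressed heart is known to switch on again, 2 rose in CHF, Acta1 and the smooth muscle actin Acta2 (1.58 ± 0.252, adjusted p = 0.00132), and 0 fell. The median of the list was 0.621 against -0.0992 for all 3199 features. Of 19 calcium handling genes 2 rose, the calcium buffers Ocm (2.98 ± 0.377, adjusted p = 0.000149) and Pvalb (1.18 ± 0.243, adjusted p = 0.0195). Of 14 genes on a list of kinases, phosphatases and proteases drawn up for troponin, 1 rose, the muscle calpain Capn3 (2.31 ± 0.294, adjusted p = 0.000149). The calpains Capn1 (-0.1355) and Capn2 (-0.518) of that list were not called. An action of Capn3 on troponin was not tested. Capn3 still passed with the sign turned (1.86, adjusted p = 0.0318), whereas Acta2, Ocm and Pvalb did not, with adjusted p-values of 0.0849, 0.0894 and 0.523. In HYP against CON, Acta1 (3.11), Ocm (2.05) and Capn3 (1.74) were the genes of these lists that rose, besides Tpm3. None of the 4 passed with the sign turned (limma adjusted p = 0.293, 0.337 and 0.136 for the first 3). No HYP or CON right ventricle array was turned, so these differences stayed the same. The setting altered only the spread estimated together with the CHF arrays, and cannot test the direction of this comparison. When HYP and CON alone were fitted, 0 features passed.

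In the right minus left comparison, where 18.3% of all features were called, these lists gave calls in both directions. The thin filament list had Pdlim3 higher (0.841) and Cryab lower (-1.77) of 7, and the thick filament list had Myl3 (-2.95) and Ttn (-1.17) lower of 8. Of 18 calcium handling genes 4 were higher and 1 lower, and of 12 kinases, phosphatases and proteases 2 were higher and 1 lower. Hcn2 and Acta2 were the higher genes among 8 of the fetal programme. None of these passed with the sign turned.

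Markers of fast skeletal muscle other than the troponins were read beside them. Of 14 tested in CHF against CON of the right ventricle 1 rose, Pvalb, 0 fell, 2 were above 0, and the median was -0.400. The mean score of the 12 of 27 such markers with a value on every array ran from 0.0224 to 0.454 in CON, -0.0943 to 0.356 in HYP and -0.251 to 0.171 in CHF right ventricle, and from -0.0760 to 0.480 in the left ventricle. In right minus left 2 of 12 were lower, Pygm (-1.23) and Pgam2 (-1.67), and 0 were higher, beside 6.54% and 11.8% of all features. Yet 8 of the 12 were above 0, and their median was 0.295 against 0.0344 for all features. An unadjusted limma p below 0.05 was reached by 6 of the 12, and by 36.1% of all features. Of the markers of other cells in CHF against CON, 0 of 9 cardiomyocyte, 0 of 4 erythrocyte, 0 of 5 fibroblast, 0 of 2 macrophage and 0 of 2 slow skeletal markers passed by limma, with 0, 0, 1, 0 and 1 at an unadjusted p below 0.05. Of 6 smooth muscle markers 1 rose (Acta2), as did the 1 endothelial marker tested (Cav1, 4.92, which was -3.68 with the sign turned).

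Among 2239 genes, those whose scores over the right ventricle arrays were most like Tnni1 were Olr1493 (r = 0.939), Mgp (0.937), Rpl-1 (0.934), Fga (0.876) and Lum (0.864), over 18 arrays each. With each condition's mean removed they correlated at 0.935, 0.924, 0.921, 0.855 and 0.855 over the same 18 arrays. These genes were picked on those arrays, so the values are no independent check. Tnni1 varied less in CON (SD 0.122) than in HYP (0.501) and CHF (0.463). Whether the genes followed Tnni1 within each single condition was not tested. The genes most like Tnni2 were Rab10 (r = 0.839, 17 arrays), Adcy8 (0.834, 17 arrays), Kif1c (0.829, 18 arrays), Tpm4 (0.822, 18 arrays) and Fgb (0.806, 18 arrays). Those most like Tnnc2 were Selenop (0.845), Acadsb (0.843), Nudt4 (0.789) and Aldh1l1 (0.785), over 17 arrays each, and Rnf103 (0.755, 16 arrays). With the sign turned 4 of the 5 genes named for Tnni1 were still among the first 5, all but Lum (r = 0.703), and their r ran from 0.751 to 0.919. Of those named for Tnni2 2 remained, Fgb (0.778) and Tpm4 (0.762), and of those named for Tnnc2 1 remained, Nudt4 (0.595). Without CHF arrays 10 and 14, 5, 2 and 3 remained. The correlated points share arrays and a common reference pool. Tnnt3 had too few right ventricle values for such a ranking.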

How the data were processed

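Gene expression was measured on 24 arrays with 2 channels, the second holding a reference pool per the labels. The authors deposited 1 score per probe and array, and the sources used here do not give the scale, scanner, background correction, dye assignment, normalization or filters. Signed values with an SD near 1 on each array were read as standardised ratios, in place of the log2 ratios first assumed, and the same test was kept. Each array held 2162 to 3658 values for 4803 probes, without counts or signal over background, so the number of arrays limits the precision.

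Probes were named through the platform annotation: 4278 had 1 symbol, 4 several and 521 none, and 4257 were found in RefSeq GRCr8, which changed 0 symbols. Probes of 1 gene were averaged. Array medians lay between -0.2 and 0.217, further apart than 0.2, so each array was centred on its median. Features with at least 2 values in each group were tested with limma 3.58.1 in R 4.3.3: lmFit and eBayes on 18 right ventricle arrays for comparisons of conditions there, and on all 24 arrays in 6 groups otherwise. P-values were adjusted by Benjamini-Hochberg over all features, with a threshold of 0.05, and the script was tested on simulated data. Permutation tests were two-sided. Those of a troponin score against the array correlation used scipy 1.17.1. Those between 2 troponins counted, over 100000 permutations, the coefficients at least as large in absolute value.

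The genes, the lists and the comparisons were chosen with earlier results of these data known. Named were the 4 troponins, list genes that passed a test, the other troponins and tropomyosins measured, and the 5 genes most correlated with each troponin, with values on at least 15 right ventricle arrays and at least 12 shared. List genes that passed between the ventricles were added after their values were seen. Alternatives covered centring, scaling, quantile normalization, the turned sign, complete features, the arrays fitted, array weights, eBayes options, single probes, the replicate block and each array left out.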

Additional observations from a re-analysis of the deposited data

Results flagged for a closer look

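The score of the cardiac troponin T gene Tnnt2 on CHF right ventricle array 12, -2.571, lay far below the other 5 arrays of its group by Dixon's criterion. Of 23 groups of troponin and tropomyosin scores checked, this was the 1 outlying array, and chance gives such a result in about 1 in 20 groups. The 11 groups checked for Tnni1, Tnni2, Tnnt3 and Tnnc2 held 0.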

How the results depend on the processing

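The right minus left call of Tnni1 held under every alternative run except the turned sign (0.601). Of 288 values under alternatives other than leaving out 1 array, 261 kept direction and side of the threshold, and of 642 with 1 array left out, 9 changed sign and 0 changed the call. With the sign turned, left ventricle CHF minus CON became -1.23 for Tnni1, -0.580 for Tnni2 and 1.15 for Tnnc2, and HYP minus CON -2.04 for Tnni1 and -1.81 for Tnni2. The same setting gave 0.345 (right) and 0.028 (left) for Tnnc2 in CHF minus HYP, right minus left values of -0.299 for Tnni2 and 0.170 for Tnnc2, and interaction terms of 0.913 (CHF) and 1.79 (HYP) for Tnni1 and 1.99 (HYP) for Tnni2. Without centring Tnni1 in left ventricle CHF minus HYP was -0.014, and right minus left was 0.625 for Tnni2 and 0.0982 for Tnnc2. Quantile normalization gave -0.0469 and 0.554 for the first 2 of these. With array weights, CHF minus HYP in the right ventricle was 0.00533 for Tnni1 and 0.266 for Tnnc2, and Tnnc2 was 0.0493 in right minus left and 0.0171 in the CHF interaction. Without CHF right ventricle arrays 10 and 14, chosen after seeing the data, these were 0.119, 0.244, 0.0421 and 0.0264. The cause of these changes was not tested.

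The labels state no pairing. Right and left arrays of the same number had deviations from their group means that correlated at -0.200 to 0.305, and 0 of 6 left ventricle arrays correlated best with their own number. The replicate block over 6 such pairs gave right minus left values of 1.74 for Tnni1, 0.329 for Tnni2 and 0.121 for Tnnc2, changed no other call, and called 998 of 2097 features against 457 of 2494. Array weights called 1080, the fit without CHF right ventricle arrays 10 and 14 called 863, and the turned sign called 0. In CHF against CON the turned sign called 9 features and the fit without those arrays 18, against 29, and 16 without CON 19 and 17 without CHF 10. In HYP against CON 9 features were called, 1 with the sign turned, 0 with the other groups left out of the fit, and 3 to 9 with 1 array left out. No HYP or CON right ventricle array was turned, so the turned sign acted there only through the spread of the CHF arrays. In the left ventricle the turned sign called 96 features in HYP against CON, and 33 and 9 in the HYP and CHF interactions, against 0. With 1 array left out, Tnnc2 ranged from -0.225 to 0.119 in right ventricle CHF minus HYP, -0.303 to 0.153 in right minus left, -1.11 to 0.255 in left CHF minus CON, -1.30 to 0.064 in left CHF minus HYP and -1.01 to 0.360 in the CHF interaction. Tnni1 ranged from -0.213 to 0.289 in left CHF minus HYP and from -0.005 to 0.497 in left HYP minus CON. The median of all features in right minus left was 0.0344, and 0.197 without centring. Missing values limit Tnnt3, and 2 arrays a group limit the left ventricle.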
